A study of Mus musculus with 12 samples.

Results

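Hippocampal cells of cisplatin-treated mice were compared with those of mice given phosphate-buffered saline (PBS), in both cases without sensory stimulation. The 6 libraries titled Cisplatin nonstim 1 to 3 and PBS nonstim 1 to 3 were taken, out of 12 in the series, and held 11738 of 19834 cells. Cisplatin nonstim had 5749 cells (1930, 2709 and 1110 in replicates 1, 2 and 3) and PBS nonstim had 5989 cells (1265, 2772 and 1952). All mice were female C57/BL6J animals of 9 weeks whose hippocampi were taken on day 22, counted from the first injection, and the other 6 libraries came from mice that also had 40 Hz light and sound. By the series design, replicate 1 of each group was 2 hippocampi of 1 animal, and replicates 2 and 3 were each 4 hippocampi pooled from 2 animals. The second kind of library then mixes animals. The labels' extract protocol instead gives 4 hippocampi of 2 animals per library, and the series design was followed here. The library prefix is 20 for replicate 1, here the first batch, and 21 for the others, the second batch. The dose and the number of injections are not given in the labels used here. The authors' 12 cell types were used as deposited.

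Cisplatin binds to purine bases and joins them within and between DNA strands, and cells answer such lesions by excision and crosslink repair, by p53 signalling and, where repair fails, by apoptosis. In the brain the drug is known for lasting effects on cognition in treated patients, and oligodendrocytes, their precursors and dividing progenitors are among the cells known to be sensitive to it. The series sets out such a chemotherapy model, and the comparison asks what cisplatin changed in each cell type when no stimulation was given.

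Depth was 7543246 to 17656020 unique molecular identifiers (UMIs, counted molecules) per library. The first batch had fewer UMIs per cell, with medians of 3264 and 3593, and a higher median share of mitochondrial UMIs, at 13.9% in Cisplatin nonstim 1 and 10.7% in PBS nonstim 1, while the second batch lay between 3.86% and 5.11%. Across the 6 libraries 14 cell barcodes occurred more than once. Reads assigned to Gm42418, AY036118 and Lars2, transcripts that overlap or resemble ribosomal RNA, made up 0.340%, 0.417% and 0.493% of UMIs in Cisplatin nonstim, against 0.542%, 2.40% and 3.65% in PBS nonstim. The 2 PBS libraries of the second batch therefore stand apart from the other 4 in a measure of library composition, and calls are also counted with this share as a covariate. A further count leaves out the 4 second-batch PBS libraries, stimulated ones included. In the second batch the share was at least 1.87% in each PBS library and at most 0.782% in each Cisplatin library. The covariate therefore cannot be told apart from the treatment there. The further count keeps PBS nonstim 1 as the only PBS nonstim library. A call lost in either setting does not tell an effect of cisplatin from a difference in these reads.

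The composition of the suspensions differed. Choroid plexus cells, the epithelium that makes cerebrospinal fluid, made up 10.8%, 38.0% and 11.4% of cells in Cisplatin nonstim 1, 2 and 3, against 2.29%, 4.83% and 9.94% in PBS nonstim. The groups did not overlap (log2 fold change of the share 1.94 ± 0.49, SE, adjusted p = 0.0117, edgeR's quasi-likelihood test on cell counts with Benjamini-Hochberg adjustment), but 1030 of the cells came from Cisplatin nonstim 2 alone. Without that library the log2 fold change was 1.57 (adjusted p = 0.0585), and without PBS nonstim 2 it was 1.68 (adjusted p = 0.0675). Fibroblasts, which lie in the meninges and the stroma of the choroid plexus, were 9, 15 and 8 cells in Cisplatin nonstim (0.466%, 0.554% and 0.721%) and 0, 1 and 4 cells in PBS nonstim. The count of 0 among 1265 cells in PBS nonstim 1 allows a share of up to 0.237%, and this limit and the others below cover counting error only. The fibroblast share was higher by a log2 fold change of 2.87 ± 0.76 (adjusted p = 0.0117), and without PBS nonstim 2 the adjusted p was 0.101. Progenitors, the dividing and newborn cells of the neurogenic niche, were 11, 6 and 5 cells in Cisplatin nonstim (0.570%, 0.221% and 0.450%), against 19, 38 and 36 cells in PBS nonstim (1.5%, 1.37% and 1.84%). The progenitor share fell, with a log2 fold change of -1.97 ± 0.43 (adjusted p = 0.00805), and the 12 fits that each left out 1 library gave -2.42 to -1.53, each past the threshold. Oligodendrocytes made up 26.7%, 18.5% and 24.9% of cells in Cisplatin nonstim and 33.0%, 23.4% and 29.2% in PBS nonstim (adjusted p = 0.402), and microglia 18.6%, 19.7% and 21.0% in Cisplatin nonstim and 22.4%, 29.2% and 26.2% in PBS nonstim (adjusted p = 0.263). Shares of a library add up to a whole, so a rise in one type lowers the others. With choroid plexus, ependymal and fibroblast cells left out of the total, the progenitor share was still lower, at a log2 fold change of -1.68 (adjusted p = 0.00252). An exact two-sided permutation within batches cannot go below p = 0.167 here, and gave that value for these 3 types.

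**Figure D1:**
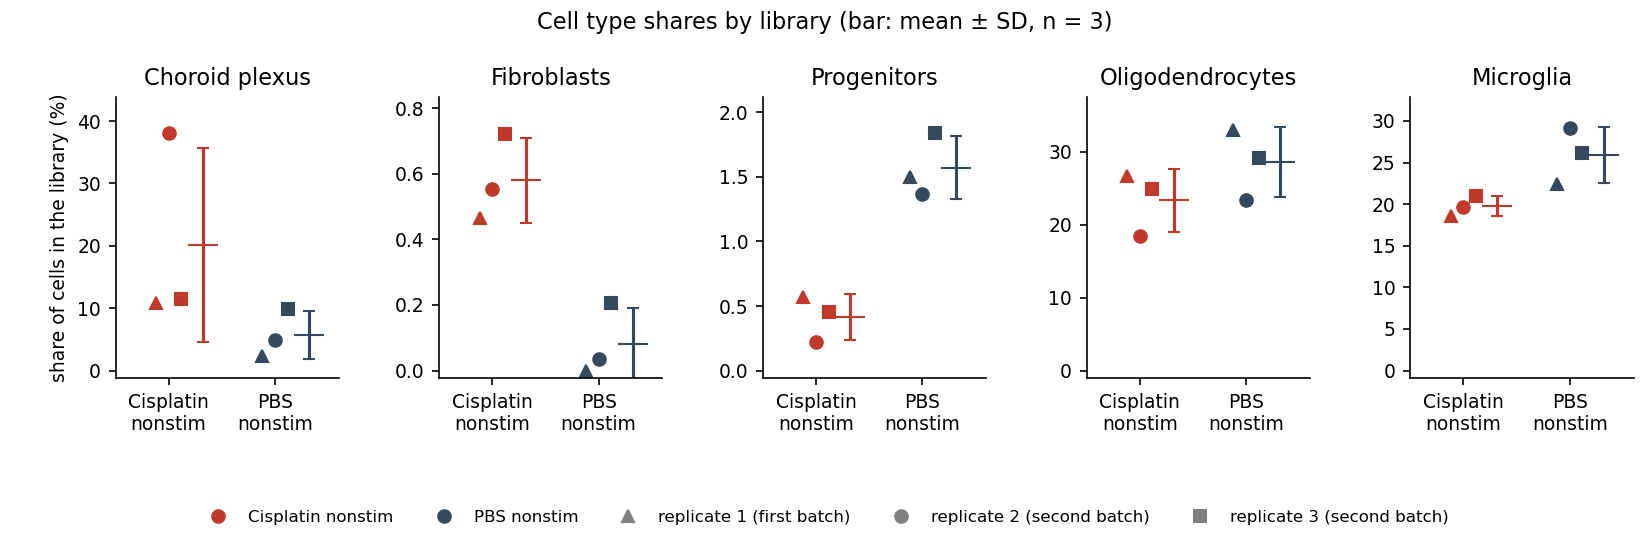
Share of cells (percent of all cells in the library, linear axes with a separate range per panel) for 5 cell types, with 1 point per library, the shape of the point giving the replicate and the bar beside the points giving the mean ± SD (n = 3). Progenitors lie lower in the 3 Cisplatin nonstim libraries than in the 3 PBS nonstim libraries, and Cisplatin nonstim 2 lies far above the other libraries in choroid plexus share at 38.0%.

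Gene by gene, counts were summed over the cells of a type in each library, and genes with an adjusted p under 0.05 are named as calls. A fold change is a log2 fold change from the fit, with its standard error (SE), positive where the gene was higher in Cisplatin nonstim. CPM of a gene are UMIs per 1000000 UMIs of the genes tested in that type and library, after edgeR's TMM scaling between libraries. They are given in the order of replicates 1, 2 and 3. Marker sums and limits for counts of 0 use all UMIs of the type, without this scaling. Over 9 cell types 1012 genes were called somewhere, 916 of them in 1 type, 80 in 2, 8 in 3 and 8 in 4 or more, and 6 were called higher in one type and lower in another. The types come from the same 6 suspensions and are not independent of each other. The groups lay apart without overlap in many genes, called or not. In oligodendrocytes 908 genes of 10094 lay higher in each Cisplatin nonstim library than in each PBS nonstim library, and 879 lay lower. These counts were 896 and 882 of 9903 in microglia, 540 and 526 of 10163 in astrocytes and 656 and 545 of 8145 in endothelium. They were 536 and 489 of 7684 in OPCs, 418 and 367 of 6591 in pericytes and 801 and 540 of 7952 in choroid plexus.

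The gene called in most types was Ttr, which encodes transthyretin, the thyroid hormone carrier that choroid plexus cells secrete in large amounts. It was higher in 7 types. In microglia it had 839, 1560 and 247 CPM in Cisplatin nonstim, against 16.7, 107 and 122 CPM in PBS nonstim (log2 fold change 3.73 ± 0.59, adjusted p = 0.00116). In astrocytes it had 456, 1546 and 910.4 CPM in Cisplatin nonstim, against 12.2, 104 and 118 CPM in PBS nonstim (log2 fold change 3.93 ± 0.53, adjusted p = 0.00032). The groups did not overlap in either type. In oligodendrocytes, where Ttr had 423, 1597 and 208 CPM in Cisplatin nonstim and 15.7, 410.0 and 109.8 CPM in PBS nonstim, they did overlap. Choroid plexus cells themselves had 214900, 278700 and 114700 CPM in Cisplatin nonstim and 59180, 164300 and 130900 CPM in PBS nonstim, with no call (adjusted p = 0.23). Ttr made up 1.77%, 8.30% and 1.19% of UMIs in the Cisplatin nonstim libraries and 0.140%, 0.657% and 0.978% in the PBS nonstim libraries. Outside choroid plexus cells it still made up 0.0481%, 0.189% and 0.0416% in Cisplatin nonstim and 0.00139%, 0.0197% and 0.0121% in PBS nonstim. The other 5 choroid plexus markers (Kl, Folr1, Kcnj13, Otx2 and Clic6) had 0.682 UMIs per 100 Ttr UMIs in Cisplatin nonstim microglia and 0.858 in Cisplatin nonstim oligodendrocytes, beside 1.22, 0.824 and 1.47 in the choroid plexus cells of Cisplatin nonstim 1, 2 and 3. The share of choroid plexus cells and Ttr outside them were both highest in Cisplatin nonstim 2 and both lowest in PBS nonstim 1. PBS nonstim 3 (9.94% choroid plexus cells) had less such Ttr than Cisplatin nonstim 1 (10.8%) and 3 (11.4%) and PBS nonstim 2 (4.83%). The part of free RNA from choroid plexus cells in the Ttr differences was not tested.

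Further genes recurred across types. Rbm3, an RNA-binding protein known to be induced by cold, was higher in 5 types. In microglia it had 254, 345 and 342 CPM in Cisplatin nonstim, against 147, 128 and 174 CPM in PBS nonstim (log2 fold change 1.07 ± 0.15, adjusted p = 0.000392), with no overlap. In oligodendrocytes it had 62.9, 360.1 and 289 CPM in Cisplatin nonstim, against 74.5, 63.4 and 111 CPM in PBS nonstim, a log2 difference of -0.24 in the first and 1.93 in the second batch. Gm42418, AY036118 and Lars2 were lower in 6 types each. In microglia Gm42418 had 2306, 2876 and 3384 CPM in Cisplatin nonstim, against 3741, 15560 and 25580 CPM in PBS nonstim, and the 2 PBS libraries of the second batch are the high ones. AY036118 shares 100% of its 31-base words near the transcript end with another annotation on its strand, so its reads may belong to either. It overlaps Gm42418 on the other strand, and the sources used here do not give whether counting used strand. Gm42418 and Lars2 share 0% and 0.167% of their end sequence with other genes. Replication-dependent histone genes Hist1h1e, a linker histone, and Hist1h4d, a core histone, were lower in 4 types, and Sult1a1, a sulfotransferase, was higher in 4.

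**Figure D2:**
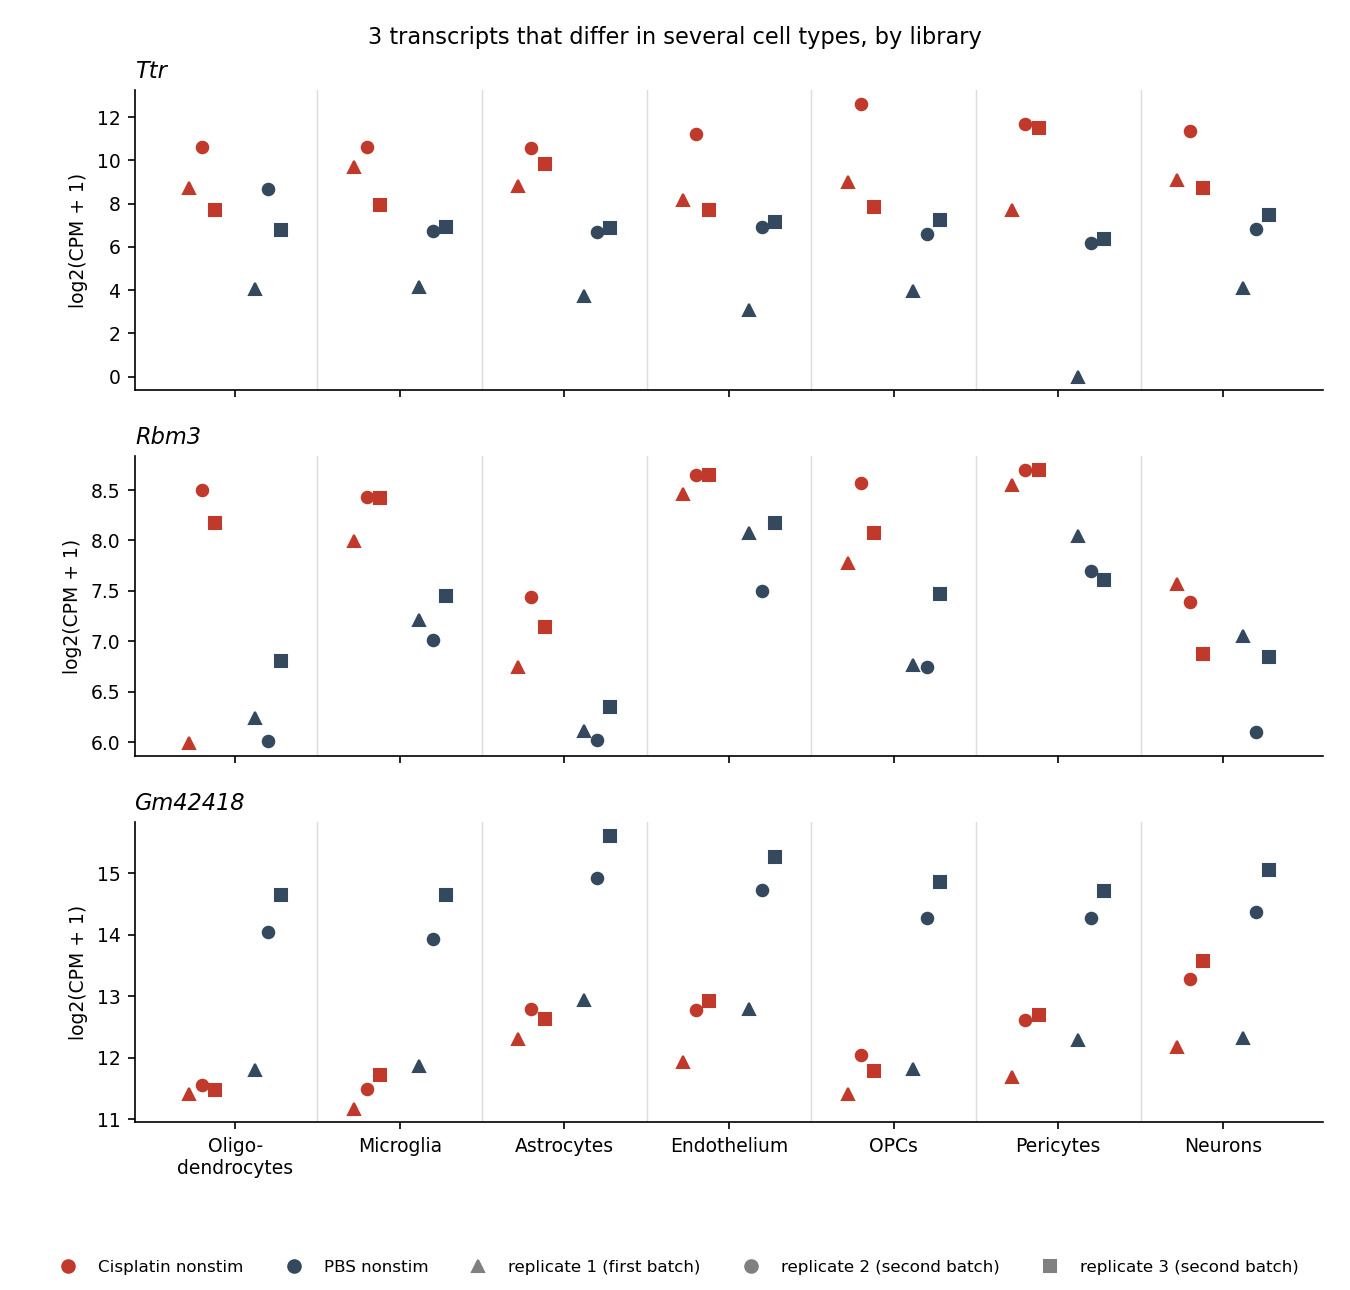
Levels of Ttr, Rbm3 and Gm42418 as log2(CPM + 1) in 7 cell types, with 1 point per library, Cisplatin nonstim left of PBS nonstim in each type. The Ttr points of PBS nonstim 1 lie lowest in each of the 7 types, and the Gm42418 points of PBS nonstim 2 and 3 lie highest.

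Oligodendrocytes, which wrap axons in myelin, had the most calls. Of 10094 genes tested, 336 were higher in Cisplatin nonstim and 295 lower, which is 6.25% in either direction, 3.33% higher and 2.92% lower. Their own markers summed to 41670 to 48020 CPM in Cisplatin nonstim and 49350 to 56230 CPM in PBS nonstim, far above any other marker set in these cells. Among 51 called genes of this type selected by the naming rules, 26 stayed called in each of the 12 fits that left out 1 library, and 7 under each of the 21 alternatives tried. Leaving out Cisplatin nonstim 2, PBS nonstim 3, Cisplatin nonstim 3, PBS nonstim 2 or Cisplatin nonstim 1 gave 123, 161, 220, 251 or 1011 calls. The ribosomal RNA-like covariate gave 35 calls and leaving out the second-batch PBS libraries gave 25.

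The 7 selected genes called under each alternative were all higher after cisplatin. Itgad encodes the alpha D subunit of a leukocyte integrin and lies on chromosome 7 (GRCm38, GENCODE, 128154376 to 128223816, + strand). It had 58.5, 99.1 and 60.8 CPM in Cisplatin nonstim, against 17.3, 13.4 and 12.1 CPM in PBS nonstim, so that the lowest Cisplatin nonstim library was above the highest PBS nonstim library (log2 fold change 2.42 ± 0.19, adjusted p = 6.56e-07). Cxcl12, the chemokine ligand of Cxcr4, had 40.04, 53 and 22.1 CPM in Cisplatin nonstim, against 5.24, 2.48 and 5.48 CPM in PBS nonstim, again without overlap (log2 fold change 3.20 ± 0.31, adjusted p = 7.33e-06). Itih5, a secreted protein that binds hyaluronan, had 70.5, 34.1 and 22.1 CPM in Cisplatin nonstim, against 14.5, 4.95 and 3.91 CPM in PBS nonstim (log2 fold change 2.54 ± 0.24, adjusted p = 6.99e-06). Cdkn1a encodes p21, the cyclin-dependent kinase inhibitor that p53 induces. It had 50.5, 45.8 and 15.7 CPM in Cisplatin nonstim, against 2.82, 6.40 and 0.391 CPM in PBS nonstim, with each Cisplatin nonstim library above each PBS nonstim library (log2 fold change 3.45 ± 0.50, adjusted p = 0.000527). C4b, complement component 4, had 58.1, 82.2 and 63.3 CPM in Cisplatin nonstim, against 23, 28.3 and 36.4 CPM in PBS nonstim (log2 fold change 1.21 ± 0.17, adjusted p = 0.000326), and 38.0% of its end sequence is shared with other genes, most with C4a. Plin4, a lipid droplet coat protein, had 54.5, 32.8 and 24.6 CPM in Cisplatin nonstim and 12.1, 12 and 4.11 CPM in PBS nonstim, and Gabrr2, a GABA receptor subunit, had 38.4, 40.6 and 24.6 CPM in Cisplatin nonstim and 11.7, 11.8 and 9.78 CPM in PBS nonstim. Neither gene overlapped between the groups.

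Of the genes that were lower, Poc1a, a centriole protein, had 20.4, 20.5 and 25.9 CPM in Cisplatin nonstim, against 39.5, 47.7 and 62.6 CPM in PBS nonstim (log2 fold change -1.18 ± 0.16, adjusted p = 0.000246). Sort1, the sorting receptor sortilin, had 182, 154 and 187 CPM in Cisplatin nonstim, against 282, 279 and 312 CPM in PBS nonstim (log2 fold change -0.74 ± 0.10, adjusted p = 0.000326). Itih3, a relative of Itih5, went the other way from it, with 31.6, 31.7 and 24.6 CPM in Cisplatin nonstim, against 63.2, 51 and 53.2 CPM in PBS nonstim (log2 fold change -0.90 ± 0.13, adjusted p = 0.000469). Kctd4 and Hist1h1e were lower as well, and none of the 5 overlapped between groups. Hist1h1e shares 99.1% of its end sequence with an overlapping histone gene, so its reads may belong to either.

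Most of the listed genes that glucocorticoids induce were called higher in oligodendrocytes. The list shares Cdkn1a with the p53 targets, Dusp1 with the immediate early genes and Per1 with the clock genes. Of 19 list members 18 were tested, 13 were called higher and none lower, at a median log2 fold change of 0.90 beside 0.0039 for all genes tested, and the median was 0.43 in the first and 1.08 in the second batch. Fkbp5, a chaperone of the glucocorticoid receptor, had 9.21, 47.8 and 41.6 CPM in Cisplatin nonstim, against 6.04, 7.43 and 4.89 CPM in PBS nonstim (log2 fold change 2.47 ± 0.33, adjusted p = 0.00025). Hif3a, a hypoxia-inducible factor subunit, had 4.40, 10.1 and 11.5 CPM in Cisplatin nonstim, against 0.805, 1.45 and 0.391 CPM in PBS nonstim (log2 fold change 3.25 ± 0.47, adjusted p = 0.000469). Sgk1, a kinase named after its induction by serum and glucocorticoids, had 397, 1495 and 1389 CPM in Cisplatin nonstim, against 300.5, 669.5 and 229.9 CPM in PBS nonstim (log2 fold change 1.29 ± 0.30, adjusted p = 0.0161), which overlap because PBS nonstim 2 was above Cisplatin nonstim 1. Ddit4, an inhibitor of mTORC1 that glucocorticoids also induce, had 177, 218 and 312 CPM in Cisplatin nonstim, against 136, 109.6 and 116 CPM in PBS nonstim (log2 fold change 0.95 ± 0.16, adjusted p = 0.00127). With the ribosomal RNA-like covariate these 4 were not called (adjusted p = 0.0844, 0.277, 0.378 and 0.114, in the order given), nor without the second-batch PBS libraries.

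Part of the immediate early genes, which cells switch on within minutes of a stimulus, were higher. Of 25 tested, 10 were called higher and none lower, the median was 0.71, and 25 of 25 had a positive fold change, with medians of 0.95 in the first and 0.64 in the second batch. Dusp1, a phosphatase that shuts down MAP kinases, had 322, 359 and 315 CPM in Cisplatin nonstim, against 147, 80.3 and 129 CPM in PBS nonstim (log2 fold change 1.496 ± 0.27, adjusted p = 0.00268). Nr4a1, an orphan nuclear receptor, had 96.5, 71 and 77.4 CPM in Cisplatin nonstim, against 44.3, 34.1 and 42.3 CPM in PBS nonstim (log2 fold change 1.01 ± 0.19, adjusted p = 0.00365). Junb and Btg2 were called too, at 1.17 ± 0.25 and 0.97 ± 0.26, and none of these 4 overlapped. With the covariate Dusp1, Nr4a1, Junb and Btg2 were not called (adjusted p = 0.119, 0.114, 0.156 and 0.335), nor without the second-batch PBS libraries. Such genes also respond to the dissociation of tissue, a step all 6 libraries went through. Of 14 clock genes tested 2 were higher and none lower, at a median of 0.57. One was Cry1, a repressor of the clock, with 21.2, 15.9 and 18.3 CPM in Cisplatin nonstim, against 10.1, 9.29 and 6.85 CPM in PBS nonstim (log2 fold change 1.06 ± 0.20, adjusted p = 0.00342). Per1, another repressor of the clock, had 23.2, 35.4 and 36.1 CPM in Cisplatin nonstim and 16.9, 16.9 and 19.2 CPM in PBS nonstim (log2 fold change 0.85 ± 0.18, adjusted p = 0.00897). The time of day at which tissue was taken is not given in the labels used here. Both cold-inducible genes, Rbm3 and Cirbp, were called higher, with a median of -0.13 in the first and 1.59 in the second batch.

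Promoters are shown for 4 called list members, the glucocorticoid-induced Sgk1, the immediate early gene Dusp1 and the clock gene Cry1, called in oligodendrocytes, and the metallothionein Mt1, called in endothelium, pericytes and OPCs. Each runs from 250 bases before to 50 bases after a gene start in RefSeq (GRCm38.p6), written 5' to 3' on the gene's strand, and capitals mark letters that match 1 of 4 motifs searched on both strands. The glucocorticoid response element was searched as GNACA and TGTNC with 3 bases between them, where N is any base. The E-box was searched as CACGTG, the cAMP response element as TGACGTCA and the metal response element as TGCACNC. Other spellings of these elements were not searched and are not marked.
Sgk1, chr10:21993640-21993939, + strand: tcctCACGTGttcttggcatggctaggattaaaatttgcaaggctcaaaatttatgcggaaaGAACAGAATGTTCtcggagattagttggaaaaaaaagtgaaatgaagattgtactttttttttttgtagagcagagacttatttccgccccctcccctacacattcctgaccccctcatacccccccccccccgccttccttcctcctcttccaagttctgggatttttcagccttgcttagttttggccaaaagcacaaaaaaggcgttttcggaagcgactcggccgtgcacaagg
Dusp1, chr17:26508423-26508722, - strand: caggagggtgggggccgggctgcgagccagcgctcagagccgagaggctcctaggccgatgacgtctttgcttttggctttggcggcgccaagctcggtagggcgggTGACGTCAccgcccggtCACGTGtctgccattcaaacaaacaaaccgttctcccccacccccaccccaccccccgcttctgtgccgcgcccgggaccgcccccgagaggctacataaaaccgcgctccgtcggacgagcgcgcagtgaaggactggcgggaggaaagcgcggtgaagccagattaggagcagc
Cry1, chr10:85185005-85185304, - strand: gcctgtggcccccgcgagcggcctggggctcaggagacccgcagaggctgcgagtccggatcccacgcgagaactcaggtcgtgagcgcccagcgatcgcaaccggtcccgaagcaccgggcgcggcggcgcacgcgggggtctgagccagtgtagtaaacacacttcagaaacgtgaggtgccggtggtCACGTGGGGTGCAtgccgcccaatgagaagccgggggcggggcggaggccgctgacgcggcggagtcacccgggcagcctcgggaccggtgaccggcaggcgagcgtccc
Mt1, chr8:94178839-94179138, + strand: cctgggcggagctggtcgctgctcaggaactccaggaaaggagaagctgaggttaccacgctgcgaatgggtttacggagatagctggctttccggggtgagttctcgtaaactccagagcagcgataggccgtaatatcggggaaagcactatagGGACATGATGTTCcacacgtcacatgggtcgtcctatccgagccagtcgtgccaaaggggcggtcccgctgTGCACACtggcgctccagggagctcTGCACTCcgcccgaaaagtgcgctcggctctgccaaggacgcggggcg
In the Sgk1 promoter, 1 of 6 starts listed for that gene and the one with a match, the capitals are an E-box at bases 5 to 10 and a glucocorticoid response element at bases 63 to 75. In Dusp1 they are a cAMP response element at 108 to 115 and an E-box at 125 to 130, in Cry1 an E-box at 191 to 196 that runs straight into a metal response element at 197 to 203, and in Mt1 a glucocorticoid response element at 157 to 169 with metal response elements at 228 to 234 and 253 to 259. The glucocorticoid element matched 0.475% of 32851 promoters, the E-box 7.15%, the cAMP element 1.79% and the metal element 12.6%. Of 15 glucocorticoid list members with a listed promoter, 1 matched the glucocorticoid element (Sgk1) and 4 the E-box, of 14 clock members 5 matched the E-box, and 3 of 3 metallothioneins matched the metal element. These are matches of letters and not shown to be bound sites.

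Some DNA damage genes were called in oligodendrocytes. Of 18 p53 targets tested 3 were called higher and none lower, where 3.33% of all genes tested were called higher. The median of these targets was 0.059, which lies near that of all genes. Besides Cdkn1a and Btg2 the third was Bbc3, which encodes the death protein PUMA and had 14, 13.8 and 12.3 CPM in Cisplatin nonstim, against 6.85, 4.54 and 5.48 CPM in PBS nonstim (log2 fold change 1.27 ± 0.24, adjusted p = 0.00359). Among 18 genes of crosslink and excision repair 1 was called, where 6.25% of all genes tested were called in either direction. It was Ercc1, a subunit of the nuclease that cuts beside crosslinks. Ercc1 had 24, 34.8 and 28.5 CPM in Cisplatin nonstim and 22.1, 22.5 and 16 CPM in PBS nonstim (log2 fold change 0.57 ± 0.17, adjusted p = 0.0477). Its call held in 3 of the 12 fits that each left out 1 library and in 7 of the 21 alternatives. H2afx, the histone variant that is phosphorylated at strand breaks, was called higher at 0.59 ± 0.17 (adjusted p = 0.0443). The H2afx call held in 4 of these 12 fits and in 8 of the 21 alternatives. Of 18 glutathione and Nrf2 genes 3 were higher and 1 lower. Gstm1, a glutathione transferase, had 166, 216 and 231 CPM in Cisplatin nonstim, against 120.4, 85.9 and 79.6 CPM in PBS nonstim (log2 fold change 1.11 ± 0.17, adjusted p = 0.000813). Keap1, the sensor that holds back Nrf2, had 47.2, 52 and 60.4 CPM in Cisplatin nonstim, against 26.2, 31.6 and 32.5 CPM in PBS nonstim (log2 fold change 0.80 ± 0.13, adjusted p = 0.00114). Gstp1, the third, had 924, 706 and 741 CPM in Cisplatin nonstim and 552, 425 and 329.7 CPM in PBS nonstim and shares 42.2% of its end sequence, most with Gstp2, while Cat, encoding catalase, was the lower one (log2 fold change -0.49 ± 0.14, adjusted p = 0.0354).

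Myelin genes split. Of 21 tested 4 were higher and 1 lower, at a median of 0.10. Mobp, a myelin structural protein, had 2708, 3691 and 3332 CPM in Cisplatin nonstim, against 2464, 2316 and 2255 CPM in PBS nonstim (log2 fold change 0.46 ± 0.11, adjusted p = 0.0175). Mobp was also called higher in microglia and astrocytes, and the part of free RNA in this was not tested. Sirt2, a deacetylase of myelinating cells, had 848, 756 and 731 CPM in Cisplatin nonstim and 631, 544 and 503 CPM in PBS nonstim (log2 fold change 0.48 ± 0.093, adjusted p = 0.00533). Apod, a lipid carrier, had 4899, 3765 and 4389 CPM in Cisplatin nonstim and 3119, 2648 and 2986 CPM in PBS nonstim (log2 fold change 0.57 ± 0.10, adjusted p = 0.00309). Antigen presentation was higher in part: of 10 class I genes tested 3 were called, H2-K1 with 56.5, 33.5 and 31.9 CPM in Cisplatin nonstim and 23.8, 13.6 and 14.1 CPM in PBS nonstim, H2-D1 with 184, 50.7 and 38.2 CPM in Cisplatin nonstim and 32.6, 29.1 and 24.9 CPM in PBS nonstim and the peptide transporter Tap2. Their median was 0.48, and it was 1.06 in the first and 0.14 in the second batch. H2-D1 shares 34.5% of its end sequence, most with H2-K1. Of 13 heat shock genes 1 was called, Cryab, a small chaperone abundant in oligodendrocytes, which was lower with 3152, 2256 and 2509 CPM in Cisplatin nonstim, against 4705, 4056 and 3416 CPM in PBS nonstim (log2 fold change -0.63 ± 0.10, adjusted p = 0.00127).

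**Figure D3:**
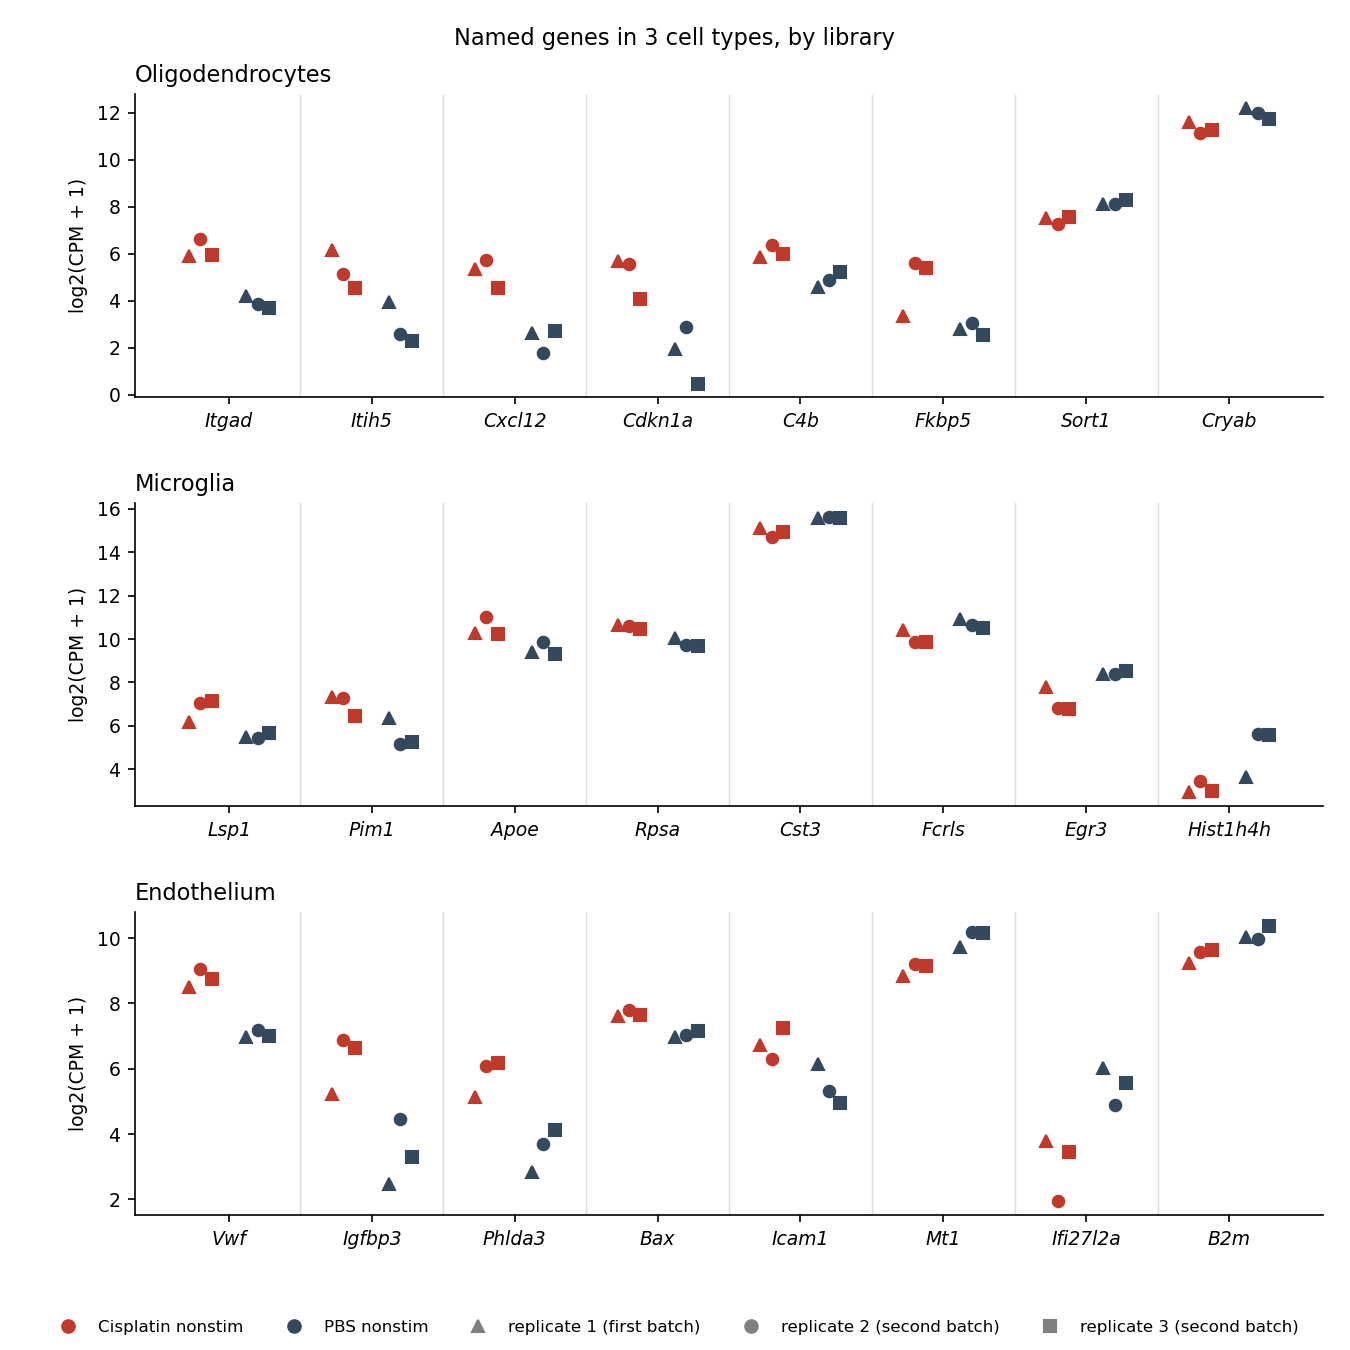
Levels of 8 genes each in oligodendrocytes, microglia and endothelium as log2(CPM + 1), with 1 point per library, the shape giving the replicate and Cisplatin nonstim left of PBS nonstim for each gene. Itgad in oligodendrocytes, Lsp1 in microglia and Vwf in endothelium are higher in the 3 Cisplatin nonstim libraries than in the 3 PBS nonstim libraries, and Sort1, Cst3 and Mt1 are lower.

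Microglia, the brain's own phagocytes, had 219 genes called higher and 137 lower of 9903 tested, which is 3.59% in either direction, 2.21% higher and 1.38% lower. Their 6 markers summed to 21360 to 24580 CPM in Cisplatin nonstim and 22580 to 24060 CPM in PBS nonstim. Leaving out Cisplatin nonstim 2, PBS nonstim 2, PBS nonstim 3, Cisplatin nonstim 3 or Cisplatin nonstim 1 gave 54, 98, 104, 118 or 631 calls, and 22 of 44 selected calls held in each such fit. The covariate gave 11 calls and leaving out the second-batch PBS libraries gave 5.

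Leaving predicted genes aside, the gene with the smallest p in microglia was Lsp1, an actin-binding protein of leukocytes. It had 70.5, 132 and 142 CPM in Cisplatin nonstim, against 44, 42.2 and 49.95 CPM in PBS nonstim (log2 fold change 1.37 ± 0.15, adjusted p = 1.91e-05), with no overlap and a log2 difference of 0.67 in the first and 1.56 in the second batch. Pim1, a kinase induced by cytokines, had 158, 155 and 87.6 CPM in Cisplatin nonstim, against 81.4, 34.7 and 37.7 CPM in PBS nonstim (log2 fold change 1.53 ± 0.20, adjusted p = 0.000143). Apoe, the lipid carrier that reactive microglia are known to raise, had 1252, 2092 and 1207 CPM in Cisplatin nonstim, against 679, 939.6 and 624 CPM in PBS nonstim (log2 fold change 1.02 ± 0.22, adjusted p = 0.00973). H2-DMa, which helps load peptides on class II molecules, had 252, 228 and 234 CPM in Cisplatin nonstim, against 190.2, 133 and 129 CPM in PBS nonstim (log2 fold change 0.69 ± 0.11, adjusted p = 0.00125), and these 4 genes were all apart between the groups.

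Lower genes in microglia included markers of the resting state. Cst3, cystatin C and one of the most abundant microglial transcripts, had 35010, 26970 and 30780 CPM in Cisplatin nonstim, against 48900, 50270 and 49480 CPM in PBS nonstim (log2 fold change -0.69 ± 0.11, adjusted p = 0.00162). Fcrls, a receptor of homeostatic microglia, had 1348, 925 and 942 CPM in Cisplatin nonstim, against 1967, 1589 and 1438 CPM in PBS nonstim (log2 fold change -0.65 ± 0.11, adjusted p = 0.00187). Tlr3, the sensor of double-stranded RNA, had 41.9, 46.1 and 39.8 CPM in Cisplatin nonstim, against 58.7, 78.2 and 75.2 CPM in PBS nonstim (log2 fold change -0.73 ± 0.12, adjusted p = 0.00125). Egr3, an early growth response factor, had 218, 113 and 110.2 CPM in Cisplatin nonstim, against 332, 335 and 373 CPM in PBS nonstim (log2 fold change -1.31 ± 0.21, adjusted p = 0.00148). None of the 4 overlapped. Of 18 homeostatic genes 2 were lower and none higher (median -0.15), and of 19 disease-associated genes 2 were higher and 1 lower (median -0.16), with Apoe one of the higher ones. The lower one was Lgals3, galectin 3, with 2.56, 4.71 and 2.15 CPM in Cisplatin nonstim and 2.00, 18.5 and 18.2 CPM in PBS nonstim, high in PBS nonstim 2 and 3 alone.

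Part of the replication-dependent histone genes were lower. Of 18 tested 8 were called lower and none higher, at a median of -0.92, but it was -0.10 in the first and -1.07 in the second batch. Hist1h4h had 6.64, 9.95 and 6.99 CPM in Cisplatin nonstim, against 11.3, 47.7 and 46.3 CPM in PBS nonstim (log2 fold change -2.14 ± 0.27, adjusted p = 0.0001) and Hist1h4d had 20.4, 39.5 and 33.3 CPM in Cisplatin nonstim, against 28.7, 156 and 178 CPM in PBS nonstim (log2 fold change -1.90 ± 0.23, adjusted p = 7.05e-05). In both, PBS nonstim 2 and 3 were the high libraries, the same 2 that were high in ribosomal RNA-like reads. Hist1h4h shares 50% of its end sequence within the family and Hist1h4d 0%, and the messages of such genes mostly lack the poly(A) tail the kit captures.

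Part of the cytosolic ribosomal protein genes were higher. Of 76 tested 12 were called higher and none lower, 74 had a positive fold change, and the median was 0.27, with 0.33 in the first and 0.23 in the second batch. Rpsa had 1606, 1550 and 1393 CPM in Cisplatin nonstim, against 1071, 850.3 and 828 CPM in PBS nonstim (log2 fold change 0.74 ± 0.11, adjusted p = 0.00077) and Rps19 had 1633, 1690 and 1663 CPM in Cisplatin nonstim, against 1154, 1094 and 1132 CPM in PBS nonstim (log2 fold change 0.56 ± 0.11, adjusted p = 0.00458), without overlap. Rpsa shares 49.9% of its end sequence with processed copies, so its level is uncertain. Of 13 mitochondrially encoded genes 7 were higher and none lower, at a median of 0.40. mt-Co1, a subunit of cytochrome oxidase, had 9725, 3993 and 4159 CPM in Cisplatin nonstim, against 6334, 2111 and 2644 CPM in PBS nonstim, which overlap because both libraries of the first batch are high, while within each batch the Cisplatin nonstim libraries were above the PBS nonstim libraries.

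Stress and inflammation genes gave a mixed picture in microglia. Of 14 glucocorticoid genes 4 were higher and none lower, with Fkbp5 at 47, 173 and 173 CPM in Cisplatin nonstim and 48.7, 84.7 and 74.1 CPM in PBS nonstim and a log2 difference of -0.05 in the first and 1.12 in the second batch. Tsc22d3, the anti-inflammatory protein GILZ, had 189.6, 294 and 354 CPM in Cisplatin nonstim and 154, 197 and 173 CPM in PBS nonstim (log2 fold change 0.65 ± 0.12, adjusted p = 0.00266). Of 27 interferon genes 2 were higher and 1 lower, at a median of 0.35 with 23 positive. Ifitm3, which blocks viral entry, had 61.9, 31.1 and 41.4 CPM in Cisplatin nonstim, against 10.01, 19.3 and 11.1 CPM in PBS nonstim (log2 fold change 1.46 ± 0.33, adjusted p = 0.0153). Isg15 had 50.6, 35.1 and 32.8 CPM in Cisplatin nonstim and 22.7, 25.4 and 20.7 CPM in PBS nonstim (log2 fold change 0.69 ± 0.19, adjusted p = 0.0429), while Tlr3 was the lower one. Of 14 heat shock genes 2 were lower and none higher, Hsph1 (log2 fold change -0.96 ± 0.25, adjusted p = 0.032) and Dnajb1 (log2 fold change -0.48 ± 0.13, adjusted p = 0.0422). The list's median was 0.13 in the first and -0.59 in the second batch. Of 15 cytokine genes 2 were higher, among them Il6, with 13.8, 16 and 22.6 CPM in Cisplatin nonstim and 4.67, 11.4 and 9.37 CPM in PBS nonstim (log2 fold change 0.91 ± 0.24, adjusted p = 0.0336). Of 20 p53 targets none was higher and 1 was lower, Gdf15, a secreted stress factor with 35.3, 7.07 and 4.30 CPM in Cisplatin nonstim and 80.1, 10.1 and 18.4 CPM in PBS nonstim (log2 fold change -1.12 ± 0.27, adjusted p = 0.0208). Cdkn1a, called in oligodendrocytes, had a log2 fold change of -0.099 in microglia.

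Endothelial cells, which line the vessels and form the blood-brain barrier, had 45 genes called higher and 32 lower of 8145 tested, which is 0.945% in either direction, 0.552% higher and 0.393% lower. Their markers summed to 18160 to 19180 CPM in Cisplatin nonstim and 18080 to 18740 CPM in PBS nonstim. Haemoglobin and other red cell markers varied by library, with 6807, 65.9 and 32.4 CPM in Cisplatin nonstim and 1104, 11380 and 8.62 CPM in PBS nonstim. Leaving out PBS nonstim 3, Cisplatin nonstim 2, Cisplatin nonstim 3, PBS nonstim 2, Cisplatin nonstim 1 or PBS nonstim 1 gave 24, 29, 33, 37, 122 or 137 calls. The covariate gave 5 calls and leaving out the second-batch PBS libraries gave 16.

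Vwf encodes von Willebrand factor, the clotting protein stored in endothelial granules, and was called under each of the 21 alternatives. It had 364, 536 and 432 CPM in Cisplatin nonstim, against 123, 145 and 128 CPM in PBS nonstim, so that the lowest Cisplatin nonstim library was well above the highest PBS nonstim library (log2 fold change 1.74 ± 0.21, adjusted p = 0.000168). Igfbp3, a secreted binder of insulin-like growth factors, had 36, 116 and 98 CPM in Cisplatin nonstim, against 4.57, 21.2 and 8.92 CPM in PBS nonstim (log2 fold change 2.73 ± 0.34, adjusted p = 0.000168). Serpine2, a protease inhibitor, had 77.6, 114 and 110.0 CPM in Cisplatin nonstim, against 39.6, 41.5 and 35.7 CPM in PBS nonstim (log2 fold change 1.37 ± 0.18, adjusted p = 0.000171). Sult1a1 had 81.3, 177 and 146 CPM in Cisplatin nonstim, against 41.1, 47.4 and 28.2 CPM in PBS nonstim (log2 fold change 1.74 ± 0.23, adjusted p = 0.000229). The last 3 were apart between the groups as well. Of 5 endothelial activation genes tested 2 were called higher, Vwf and the leukocyte adhesion molecule Icam1, which had 105, 77.6 and 151 CPM in Cisplatin nonstim, against 70.02, 38.9 and 29.7 CPM in PBS nonstim (log2 fold change 1.30 ± 0.28, adjusted p = 0.0179).

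Part of the p53 targets were higher in endothelium. Of 19 tested 4 were called higher and none lower, 15 had a positive fold change, and the median was 0.40 beside 0.0023 for all genes, with 0.33 in the first and 0.37 in the second batch. Phlda3, a repressor of the kinase Akt, had 34.2, 66.2 and 71 CPM in Cisplatin nonstim, against 6.09, 11.8 and 16.4 CPM in PBS nonstim (log2 fold change 2.38 ± 0.31, adjusted p = 0.000171). Trp53inp1, a p53 cofactor, had 40.7, 94.6 and 96 CPM in Cisplatin nonstim, against 24.4, 38.1 and 32.7 CPM in PBS nonstim (log2 fold change 1.24 ± 0.21, adjusted p = 0.0024). Ccng1, cyclin G1, had 32.4, 36 and 51 CPM in Cisplatin nonstim, against 12.2, 19.5 and 23.8 CPM in PBS nonstim (log2 fold change 1.11 ± 0.26, adjusted p = 0.0352). Bax, which permeabilises mitochondria in apoptosis, had 194, 219.5 and 199 CPM in Cisplatin nonstim, against 125, 131 and 143 CPM in PBS nonstim (log2 fold change 0.63 ± 0.15, adjusted p = 0.0456). None of the 4 overlapped between groups. With the ribosomal RNA-like covariate Phlda3, Trp53inp1, Ccng1 and Bax were not called in edgeR (adjusted p = 0.290, 0.586, 0.709 and 0.783). Over the 12 fits that each left out 1 library, Phlda3 and Trp53inp1 were called in all 12, Ccng1 in 6 and Bax in 4. Cdkn1a, shown here though no rule picked it, had 716, 808 and 861 CPM in Cisplatin nonstim and 346, 804 and 351 CPM in PBS nonstim, an overlap and no call (adjusted p = 0.273). Ercc1 was called here too, with 52.7, 51.1 and 44 CPM in Cisplatin nonstim, against 42.6, 16.1 and 14.9 CPM in PBS nonstim (log2 fold change 1.08 ± 0.25, adjusted p = 0.032). Its call held in 8 of the 12 fits that each left out 1 library.

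Part of the interferon and class I genes were lower in endothelium. Of 29 interferon genes 3 were called lower and none higher, with 3 positive fold changes and a median of -0.38. Ifi27l2a, an interferon-induced protein, had 12.9, 2.84 and 10.0 CPM in Cisplatin nonstim, against 63.9, 28.8 and 46.1 CPM in PBS nonstim (log2 fold change -2.35 ± 0.44, adjusted p = 0.0064). Gbp3, a GTPase, had 76.7, 93.7 and 82 CPM in Cisplatin nonstim, against 172, 136 and 159 CPM in PBS nonstim (log2 fold change -0.87 ± 0.18, adjusted p = 0.0162). Of 15 class I genes 2 were lower, none higher, and 0 had a positive fold change, at a median of -0.41. B2m, the invariant chain that pairs with class I heavy chains, had 608, 755 and 793 CPM in Cisplatin nonstim, against 1059, 995 and 1327 CPM in PBS nonstim (log2 fold change -0.66 ± 0.15, adjusted p = 0.0326). Psmb9, an immunoproteasome subunit, had 59.2, 63.4 and 72 CPM in Cisplatin nonstim and 104, 103 and 102 CPM in PBS nonstim (log2 fold change -0.67 ± 0.15, adjusted p = 0.021). Each of these 4 genes was lower in the 3 Cisplatin nonstim libraries than in the 3 PBS nonstim libraries. Slfn2, a member of the Schlafen family, was the third interferon gene (log2 fold change -1.28 ± 0.21, adjusted p = 0.00241), and the chromatin remodeller Smarca2, outside these lists, was lower too (log2 fold change -0.82 ± 0.14, adjusted p = 0.0024).

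Of 3 metallothioneins tested, small proteins that bind zinc and copper and can also bind platinum, 2 were lower in endothelium. Mt1, whose promoter is printed above, had 459, 585 and 567 CPM in Cisplatin nonstim, against 852, 1165 and 1143 CPM in PBS nonstim (log2 fold change -0.97 ± 0.18, adjusted p = 0.00606). Mt2 had 98, 132 and 136 CPM in Cisplatin nonstim, against 268, 322 and 278 CPM in PBS nonstim (log2 fold change -1.25 ± 0.26, adjusted p = 0.0162), while the third tested member was not called. The groups did not overlap, and the list's median was -0.89 in the first and -0.999 in the second batch. Heat shock genes had 1 lower call of 14, Hspb1, and 0 positive fold changes, with a median of 0.15 in the first and -0.48 in the second batch. Of 16 glucocorticoid genes 3 were higher and 1 lower. Sgk1 had 279, 249.8 and 267 CPM in Cisplatin nonstim, against 208, 137 and 143 CPM in PBS nonstim (log2 fold change 0.72 ± 0.17, adjusted p = 0.0395), Mt2 was the lower one, and Zbtb16, a transcription factor that steroids induce, had 14.8, 89.9 and 60.01 CPM in Cisplatin nonstim and 18.3, 14.4 and 5.95 CPM in PBS nonstim, a difference of -0.26 in the first and 2.64 in the second batch. Of 15 blood-brain barrier genes none was called in edgeR, and 2 had an unadjusted p under 0.05.

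Cells labelled pericytes, the mural cells of capillaries, had 10 genes called higher and 6 lower of 6591, which is 0.243% in either direction, 0.152% higher and 0.091% lower. Pericyte markers summed to 11830 to 12610 CPM in Cisplatin nonstim and 10360 to 14360 CPM in PBS nonstim, but endothelial markers reached 10220 to 13110 CPM in Cisplatin nonstim and 10240 to 11270 CPM in PBS nonstim, so the type also holds endothelial RNA. For genes called in both types, among them Vwf, Igfbp3, Phlda3 and Sult1a1, the 2 sources cannot be told apart. Leaving out Cisplatin nonstim 3, PBS nonstim 2 or PBS nonstim 1 gave 10, 10 or 30 calls, the covariate gave 4 and leaving out the second-batch PBS libraries gave 8. Spp1, the secreted phosphoprotein osteopontin, was called under each of the 21 alternatives. It had 1101, 325 and 204 CPM in Cisplatin nonstim, against 97.7, 28.4 and 88.1 CPM in PBS nonstim (log2 fold change 2.75 ± 0.32, adjusted p = 3.28e-05). Apod had 1884, 617 and 399.5 CPM in Cisplatin nonstim, against 150.3, 151 and 279 CPM in PBS nonstim (log2 fold change 1.94 ± 0.31, adjusted p = 0.00178), with the highest level in Cisplatin nonstim 1. Igfbp3 had 102, 89.9 and 118 CPM in Cisplatin nonstim, against 15, 19.6 and 3.67 CPM in PBS nonstim (log2 fold change 2.71 ± 0.44, adjusted p = 0.00242), and no library of one group reached into the other for these 3. Of 3 metallothioneins 2 were lower here as well, with Mt1 at 505, 319.7 and 377 CPM in Cisplatin nonstim and 729, 948 and 793 CPM in PBS nonstim (log2 fold change -1.09 ± 0.20, adjusted p = 0.00605) and Mt2 at 98.3, 59.9 and 49.9 CPM in Cisplatin nonstim and 195, 204 and 195 CPM in PBS nonstim (log2 fold change -1.56 ± 0.24, adjusted p = 0.00178). Of 19 p53 targets 1 was called higher, Phlda3, with 72.1, 37.5 and 127 CPM in Cisplatin nonstim, against 22.6, 12.4 and 11 CPM in PBS nonstim (log2 fold change 2.44 ± 0.52, adjusted p = 0.0378), and 16 had a positive fold change at a median of 0.54. Aspn, an extracellular matrix protein chosen after its values were seen, was lower, with 62.3, 39.96 and 59 CPM in Cisplatin nonstim, against 233, 128 and 150.5 CPM in PBS nonstim (log2 fold change -1.66 ± 0.30, adjusted p = 0.00801). Of 11 mural identity genes none was called in edgeR, and 0 had an unadjusted p under 0.05.

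Astrocytes, which feed neurons and clear glutamate, had 22 genes called higher and 15 lower of 10163, which is 0.364% in either direction, 0.216% higher and 0.148% lower. With the ribosomal RNA-like covariate edgeR called 0 genes and 593 had an unadjusted p under 0.05. Of 17 selected calls in this type 3 (Agt, Etnppl and Ttr) held in each of the 12 fits that left out 1 library, and 0 under every alternative. Leaving out Cisplatin nonstim 3, Cisplatin nonstim 2, PBS nonstim 3, PBS nonstim 2, Cisplatin nonstim 1 or Cisplatin stim 1 gave 7, 11, 12, 21, 72 or 83 calls, and leaving out the second-batch PBS libraries gave 15. Agt, angiotensinogen, which astrocytes make in the brain, had 645, 465 and 490.5 CPM in Cisplatin nonstim, against 331, 254 and 249.7 CPM in PBS nonstim (log2 fold change 0.94 ± 0.13, adjusted p = 0.00032), and the difference was 0.96 in the first and 0.92 in the second batch. Etnppl, an enzyme that breaks down phosphoethanolamine, had 220.4, 350.5 and 332 CPM in Cisplatin nonstim, against 128, 132 and 84.5 CPM in PBS nonstim (log2 fold change 1.38 ± 0.19, adjusted p = 0.00032). The groups did not overlap for either gene. Fabp7, the fatty acid binder of radial glia and astrocytes, was lower with 110.2, 185 and 96.6 CPM in Cisplatin nonstim, against 152, 358 and 391 CPM in PBS nonstim (log2 fold change -1.10 ± 0.20, adjusted p = 0.00829), and here PBS nonstim 1 lies below Cisplatin nonstim 2. Cholesterol synthesis genes, which astrocytes use to supply other cells, had 2 lower calls of 23 and 0 positive fold changes, at a median of -0.30, but it was -1.17 in the first and -0.016 in the second batch. Hmgcs1, an enzyme early in the pathway, had 169.7, 276 and 223 CPM in Cisplatin nonstim, against 401, 331 and 405 CPM in PBS nonstim (log2 fold change -0.78 ± 0.15, adjusted p = 0.0149). Idi1, an isomerase, had 72, 173 and 149 CPM in Cisplatin nonstim, against 184, 232 and 224 CPM in PBS nonstim (log2 fold change -0.76 ± 0.16, adjusted p = 0.0183), neither with an overlap, and 40.2% of the end sequence of Idi1 is shared with other genes. Hsp90b1, a chaperone of the endoplasmic reticulum, was lower as 1 of 10 genes of the unfolded protein response, with 264, 310.2 and 254 CPM in Cisplatin nonstim, against 476, 454 and 417 CPM in PBS nonstim (log2 fold change -0.70 ± 0.13, adjusted p = 0.0109). Fkbp5 was higher at 5.14, 14.8 and 12.1 CPM in Cisplatin nonstim and 3.06, 1.66 and 2.54 CPM in PBS nonstim, the 1 call among 18 glucocorticoid genes.

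Oligodendrocyte precursor cells (OPCs), which divide in the adult brain and renew oligodendrocytes, had 17 genes called higher and 6 lower of 7684, which is 0.299% in either direction, 0.221% higher and 0.0781% lower. Leaving out Cisplatin nonstim 2, Cisplatin nonstim 3 or Cisplatin nonstim 1 gave 8, 14 or 37 calls, the covariate gave 15 and leaving out the second-batch PBS libraries gave 12. Ptgds, prostaglandin D synthase, had 216, 166 and 216 CPM in Cisplatin nonstim, against 84.9, 69.3 and 56.4 CPM in PBS nonstim (log2 fold change 1.47 ± 0.18, adjusted p = 9.52e-06). Ptgds was also called higher in oligodendrocytes and microglia. Aldoc, a glycolytic enzyme best known from astrocytes, had 595, 587 and 594 CPM in Cisplatin nonstim, against 358, 240.0 and 146 CPM in PBS nonstim (log2 fold change 1.27 ± 0.17, adjusted p = 2.06e-05), beside an astrocyte marker sum, which includes Aldoc, of 1198 to 1582 CPM in Cisplatin nonstim and 1008 to 1498 CPM in PBS nonstim. Htra1, a secreted protease, had 408, 202 and 284 CPM in Cisplatin nonstim, against 219.6, 109 and 71.4 CPM in PBS nonstim (log2 fold change 1.15 ± 0.20, adjusted p = 0.00135), with an overlap through PBS nonstim 1. H2-K1 had 107, 97.8 and 106 CPM in Cisplatin nonstim, against 58, 53.2 and 56.4 CPM in PBS nonstim (log2 fold change 0.87 ± 0.20, adjusted p = 0.0384). Mt1 had 437, 608 and 703 CPM in Cisplatin nonstim, against 327, 399 and 364 CPM in PBS nonstim (log2 fold change 0.66 ± 0.15, adjusted p = 0.0445), called higher here and lower in endothelium and pericytes, a difference between types that was not tested. Pcp4, a regulator of calmodulin, was lower with 142, 101 and 106 CPM in Cisplatin nonstim, against 159.5, 260.0 and 284 CPM in PBS nonstim (log2 fold change -0.93 ± 0.21, adjusted p = 0.0348), and 30.6% of its end sequence is shared with an overlapping gene.

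Neurons and immune cells gave 1 call each. In neurons 1 gene of 6561 was called (0.0152%), Ttr. Their composition differed: the median mitochondrial share was 28.2%, 26.8% and 30.1% in Cisplatin nonstim and 18.2%, 7.76% and 14% in PBS nonstim, the astrocyte marker sum was 2023, 2810 and 5341 CPM in Cisplatin nonstim against 1673, 1856 and 1235 CPM in PBS nonstim, and the authors' cluster 10 held 50.5%, 46.8% and 61.7% of neurons in Cisplatin nonstim and 32.6%, 29.3% and 24.7% in PBS nonstim. Ribosomal protein genes had a positive fold change in 76 of 76, at a median of 0.69, and 12 of 13 mitochondrially encoded genes did, at a median of 1.24. Neither list had a call, and 45 and 10 members had an unadjusted p under 0.05. With 175, 40 and 32 calls without Cisplatin nonstim 1, PBS stim 1 and Cisplatin stim 2, 65 by DESeq2, and 0 in edgeR without PBS nonstim 2 or Cisplatin nonstim 2 (627 and 650 at an unadjusted p under 0.05), the count in neurons depends on the library set and the tool. In cells labelled immune 1 gene of 2395 was called (0.0418%), Fcna, a ficolin made by macrophages. It had 345, 309 and 236 CPM in Cisplatin nonstim and 0, 26.7 and 24.7 CPM in PBS nonstim, where the 0 of PBS nonstim 1, from 92052 UMIs, allows up to 32.6 CPM. The call was lost when Cisplatin nonstim 2 or any of the 3 PBS nonstim libraries was left out. Microglial markers in this type summed to 11250 to 13910 CPM in Cisplatin nonstim and 10700 to 18250 CPM in PBS nonstim, more than the immune markers at 1552 to 5452 CPM in Cisplatin nonstim and 1075 to 6759 CPM in PBS nonstim, so the label is carried by few of its markers.

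Choroid plexus cells gave no calls: 0 of 7952 genes (0%) passed in edgeR, 1846 had an unadjusted p under 0.05, and DESeq2 called 122. The 23 genes of secretion and transport went opposite ways in the 2 batches, with a median log2 difference of 1.71 in the first and -1.28 in the second batch. Kl, which encodes the hormone co-receptor Klotho and was chosen after its values were seen, had 645, 406 and 312 CPM in Cisplatin nonstim and 334, 1814 and 1495 CPM in PBS nonstim (adjusted p = 0.202). Its PBS nonstim 2 and 3 libraries were the highest and PBS nonstim 1 was close to the lowest. PBS nonstim 1 held 29 choroid plexus cells, and without it 1674 genes were called. Leaving out PBS stim 1, Cisplatin nonstim 1 or Cisplatin stim 1 gave 354, 292 or 18 calls. Rbm3 and Sult1a1, called in other types, were not called here. Rbm3 had 495, 540.1 and 438 CPM in Cisplatin nonstim, against 362, 110.1 and 176 CPM in PBS nonstim (log2 fold change 1.34 ± 0.33, adjusted p = 0.0828). Sult1a1 had 39.8, 48.6 and 54.6 CPM in Cisplatin nonstim, against 11.3, 21.4 and 10.7 CPM in PBS nonstim (log2 fold change 1.73 ± 0.42, adjusted p = 0.0828), and the groups did not overlap for either gene.

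**Figure D4:**
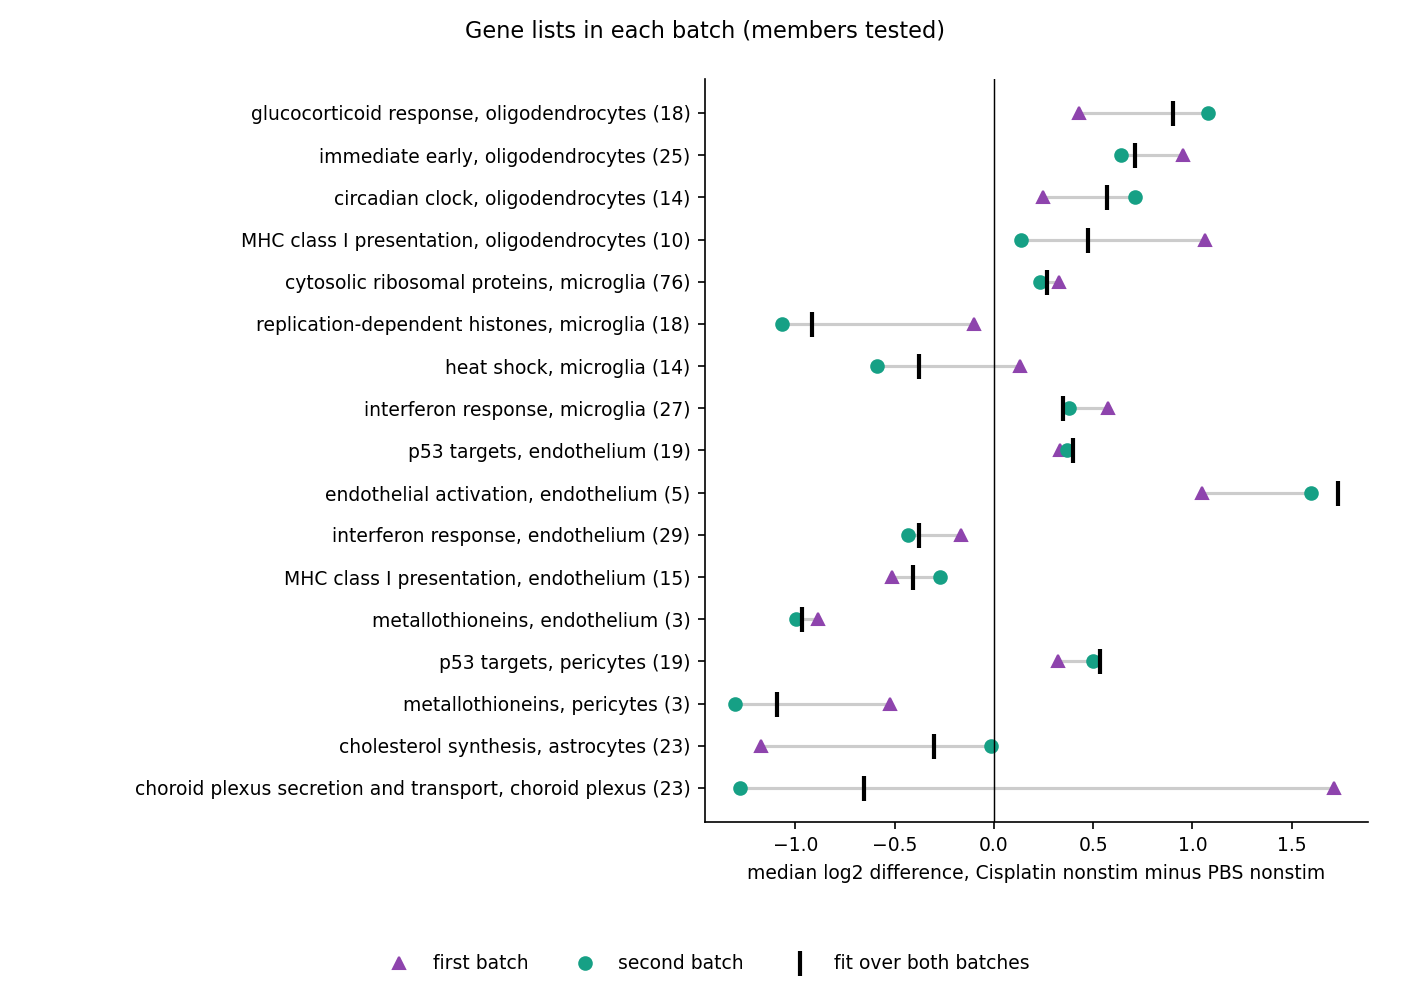
Median log2 difference (Cisplatin nonstim minus PBS nonstim) of 17 gene lists in the cell type named, with the number of members tested in brackets, in the first batch (triangles), in the second batch (circles) and in the fit over both (bars). The p53 targets of endothelium lie at 0.33 and 0.37 in the 2 batches, while the choroid plexus list lies at 1.71 and -1.28.

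A call in one type and not in another is no test of a difference, so the effects in 3 pairs of types were compared within libraries with limma. Between microglia and endothelium 12 of 7329 genes differed (0.164%). Tsc22d3 had log2 fold changes of 0.65 in microglia and -0.29 in endothelium (difference 0.93 ± 0.14, adjusted p = 0.0101), and Serpine2 had -0.097 and 1.37 (-1.38 ± 0.19, adjusted p = 0.00693). Between oligodendrocytes and microglia 18 of 8411 differed (0.214%). Cdkn1a was among them, with log2 fold changes of 3.45 in oligodendrocytes and -0.099 in microglia (difference 3.54 ± 0.44, adjusted p = 0.0032), and so was Dynll1, a dynein light chain, with -1.12 and 0.39 (-1.51 ± 0.20, adjusted p = 0.0032). Between oligodendrocytes and astrocytes 8 of 8820 differed (0.0907%), led by Scrg1, at 1.62 in oligodendrocytes and -0.16 in astrocytes (difference 1.71 ± 0.21, adjusted p = 0.00034), and Itih3, at -0.90 and 0.73 (-1.65 ± 0.21, adjusted p = 0.00034). Itih5 differed as well (2.48 ± 0.32, adjusted p = 0.00047). With the replicate block 10, 10 and 5 genes differed in the 3 pairs. Leaving out PBS nonstim 3 gave 0, 3 and 5, leaving out Cisplatin nonstim 2 gave 0, 4 and 7, and leaving out Cisplatin stim 1 gave 44, 62 and 21. In the limma fits with 0 calls, 340 and 364 genes had an unadjusted p under 0.05. Over the 12 fits that each left out 1 library, the counts ran from 0 to 44, from 3 to 62 and from 4 to 21. With the ribosomal RNA-like covariate limma called 0, 0 and 5 genes, with 387 and 532 at an unadjusted p under 0.05 in the first 2 pairs.

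The effect of cisplatin without stimulation was set against its effect in the stimulated mice through the interaction term. Of 69488 gene and type pairs 17 were called (0.0245%). Plin4 in oligodendrocytes was higher after cisplatin in both settings, at 1.96 without stimulation and 4.46 with it (interaction -2.50 ± 0.40, adjusted p = 0.0138). Gstp1 in oligodendrocytes was 0.88 without stimulation and -0.77 with it (1.66 ± 0.28, adjusted p = 0.0163). Ttr had 5.30 and 0.53 in pericytes (4.78 ± 0.55, adjusted p = 5.57e-05), where PBS nonstim 1 was at 0 and the fitted value depends on the prior count. In the stimulated mice choroid plexus cells made up 7.96%, 29.7% and 19.2% of cells in Cisplatin stim 1, 2 and 3. The share was 2.95%, 16.1% and 24.1% in PBS stim 1, 2 and 3, so these groups overlapped, unlike those without stimulation. The part of free RNA from choroid plexus cells in the Ttr interaction was not tested. Leaving out PBS stim 3, Cisplatin nonstim 2, PBS stim 1, Cisplatin stim 1 or PBS nonstim 3 gave 3, 9, 26, 40 or 41 calls.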

How the data were processed

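Single cells of 12 mouse hippocampus libraries (10x 3' chemistry) were deposited as raw UMI counts per cell and gene, with the authors' library name, cell type and cluster for each cell. Per the submitters' processing notes, Cell Ranger 5.0.0, Scanpy and the mm10 build were used; the cell filters and doublet handling are not given in the sources used here, and no cell was removed. Counts of the 6 libraries without stimulation, and of the 6 stimulated ones to share the estimate of spread, were summed per library and type, with at least 10 cells. Each type was fitted with edgeR 4.0.16 (R 4.3.3; quasi-likelihood, TMM, filterByExpr, group and batch as terms), with p-values adjusted over all genes of the type. Differences between types were tested with limma 3.58.1 on the within-library difference of log2 CPM (prior count 2), and shares with edgeR on cell counts. DESeq2 1.42.0 was an alternative. CPM in the text are UMIs per 1000000 of the type in a library. The scripts were tested on simulated data.

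The labels do not say whether replicates 2 and 3 were handled apart, so p-values measure the spread between these libraries. Cells are not replicates, and intervals for counts of 0 (3 counts) cover counting error only. Named genes were, per type, the 5 called genes of smallest adjusted p in each direction, genes called in 4 or more types, up to 4 called members of each list and the leading genes of each difference, of which the text prints a selection. Results of 2 of these genes are not reported here. Predicted and Rik genes were left out, except the ribosomal RNA-like ones. Ttr and Kl in choroid plexus, Cdkn1a in endothelium, Sgk1 in oligodendrocytes and Aspn in pericytes fall outside that rule and were picked once their values were known. The comparison and the gene lists were chosen with earlier results of these data known. Shared sequence is the percent of 31-base words in the last 500 bases of a gene's transcripts (GENCODE, GRCm38) that occur in another gene, and values of genes with a high share are uncertain. Promoters are RefSeq's.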

Additional observations from a re-analysis of the deposited data

Results flagged for a closer look

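In the following genes the effect of cisplatin (log2 fold change, Cisplatin nonstim over PBS nonstim) differed between 2 cell types of the same libraries, or between mice without and with stimulation, by a test of the difference itself. Each is given as the difference with its SE and adjusted p, and then the effect in the first and in the second of the pair.

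Between microglia and endothelium (limma), the effect on Tsc22d3 differed by 0.93 ± 0.14 (adjusted p = 0.0101, 0.65 in microglia and -0.29 in endothelium). Selenow, a selenoprotein, differed by 0.80 ± 0.13 (adjusted p = 0.0218, 0.66 and -0.13), and Fcgrt, the neonatal Fc receptor, by 0.84 ± 0.14 (adjusted p = 0.0218, 0.65 and -0.23). Serpine2 differed by -1.38 ± 0.19 (adjusted p = 0.00693, -0.097 and 1.37). Serinc3 differed by -0.69 ± 0.12 (adjusted p = 0.0218, 0.11 and 0.80), and Cd9, a tetraspanin, by -0.85 ± 0.15 (adjusted p = 0.0296, -0.37 and 0.47).

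Between oligodendrocytes and microglia, Cdkn1a differed by 3.54 ± 0.44 (adjusted p = 0.0032, 3.45 in oligodendrocytes and -0.099 in microglia). Sparc, a matrix protein, differed by 1.37 ± 0.18 (adjusted p = 0.0032, 1.22 and -0.16), and Htra1 by 1.42 ± 0.22 (adjusted p = 0.0146, 1.11 and -0.46). Dynll1 differed by -1.51 ± 0.20 (adjusted p = 0.0032, -1.12 and 0.39), Pcsk1n by -0.93 ± 0.15 (adjusted p = 0.0164, 0.021 and 0.89), and Tmsb10, a thymosin, by -1.06 ± 0.18 (adjusted p = 0.0164, -0.38 and 0.68).

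Between oligodendrocytes and astrocytes, Scrg1 differed by 1.71 ± 0.21 (adjusted p = 0.00034, 1.62 in oligodendrocytes and -0.16 in astrocytes), Itih5 by 2.48 ± 0.32 (adjusted p = 0.00047, 2.54 and -0.12) and Htra1 by 1.25 ± 0.17 (adjusted p = 0.00061, 1.11 and -0.13). Itih3 differed by -1.65 ± 0.21 (adjusted p = 0.00034, -0.90 and 0.73) and Magi1, a scaffold protein, by -1.14 ± 0.22 (adjusted p = 0.0429, -0.64 and 0.53).

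Between mice without and with stimulation (edgeR's interaction term), Ttr differed by 4.78 ± 0.55 in pericytes (adjusted p = 5.57e-05, 5.30 without and 0.53 with stimulation) and by 5.38 ± 0.92 in OPCs (adjusted p = 0.00781, 4.85 and -0.54). In the pericytes of PBS nonstim 1 Ttr had 0 counts of 143418 UMIs, which allows up to 20.9 CPM. The share of choroid plexus cells lay apart between the groups without stimulation and overlapped between them with it. The part of free RNA from choroid plexus cells in these Ttr differences was not tested. In oligodendrocytes Gstp1 differed by 1.66 ± 0.28 (adjusted p = 0.0163, 0.88 and -0.77), Usp50 by -2.21 ± 0.35 (adjusted p = 0.0138, -0.90 and 1.30) and Plin4 by -2.50 ± 0.40 (adjusted p = 0.0138, 1.96 and 4.46).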

How the results depend on the processing

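Of 168 called gene and type values selected by the naming rules, of which the text prints a part, none changed direction under the 21 alternatives, 79 stayed called without each library in turn and 12 under every alternative. Still called were 25 of 168 with the ribosomal RNA-like share as covariate and 23 of 166 without the 4 second-batch PBS libraries, against 167 with RLE normalization, 166 with no filter, 160 with the replicate block, 161 in the second batch alone and 118 by DESeq2. Counts of calls, in the order oligodendrocytes, microglia, choroid plexus, astrocytes, endothelium, neurons, OPCs, pericytes and immune cells, were 384, 214, 122, 36, 51, 65, 23, 13 and 5 by DESeq2. They were 634, 361, 6, 37, 77, 1, 23, 16 and 1 with RLE normalization, and 934, 615, 489, 114, 186, 102, 63, 37 and 42 with no filter. With 6 libraries only they were 507, 432, 1, 59, 79, 71, 15, 12 and 3, and in the second batch alone 1872, 1021, 3198, 190, 254, 227, 82, 46 and 5. With the covariate they were 35, 11, 0, 0, 5, 0, 15, 4 and 0, where choroid plexus, astrocytes, neurons and immune cells had 299, 593, 232 and 143 genes at an unadjusted p under 0.05 in edgeR. Without the 4 second-batch PBS libraries they were 25, 5, 67, 15, 16, 2, 12, 8 and 0, with 125 at an unadjusted p under 0.05 in immune cells. With cells over 10% mitochondrial UMIs left out they were 728, 367, 7 and 61 in the first 4 types, 73 in endothelium, 28 in OPCs, 17 in pericytes and 0 in immune cells (187 at an unadjusted p under 0.05), and neurons could not be fitted. The cause of these changes was not tested. In the second batch the covariate cannot be told apart from the treatment. Without the second-batch PBS libraries, PBS nonstim 1 was the only PBS nonstim library left.

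Without 1 library each, calls ranged from 123 to 1011 in oligodendrocytes, 54 to 631 in microglia, 0 to 1674 in choroid plexus, 7 to 83 in astrocytes, 24 to 137 in endothelium, 0 to 175 in neurons, 8 to 37 in OPCs, 10 to 30 in pericytes and 0 to 2 in immune cells. They ranged from 0 to 44 for microglia minus endothelium, 3 to 62 for oligodendrocytes minus microglia, 4 to 21 for oligodendrocytes minus astrocytes, 3 to 41 for the interaction and 1 to 4 for shares. The log2 fold change of the share ranged from 1.57 to 2.36 in choroid plexus, 2.20 to 4.26 in fibroblasts and -2.42 to -1.53 in progenitors. The 3 pairs, in the order just given, had 126, 84 and 14 calls with 6 libraries only, 82, 103 and 16 in the second batch alone, and 0, 0 and 5 with the covariate by limma (387 and 532 at an unadjusted p under 0.05 in the first 2). The interaction had 69 calls in the second batch alone and 41 with the covariate, and cannot be had from 6 libraries. Of 3 called shares, that of progenitors was still called with choroid plexus, ependymal and fibroblast cells left out. The choroid plexus and fibroblast shares could not be tested in that setting, as these cells were the ones left out. By exact permutation, which cannot pass the threshold here, 0 were called.

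With the replicate block the counts were 510, 319, 0, 34, 82, 1, 26, 17 and 1 for the 9 types (choroid plexus 1498 at an unadjusted p under 0.05), 10, 10 and 5 for the pairs, 21 for the interaction and 3 for shares. Deviations of same-numbered libraries correlated at 0.028 to 0.37 for number 1 outside choroid plexus (-0.27), and at -0.093 to 0.080 between same-numbered libraries within the second batch, so the numbers were not taken as pairs beyond the batch. In choroid plexus, where no gene was called, the direction reversed without the 4 second-batch PBS libraries for Cldn1 (8.18), Car12 (1.08), Kl (0.98) and mt-Nd6 (1.98), and with the covariate for Car12 (0.042) and Kl (0.11). DESeq2, RLE, no filter and the mitochondrial limit were not run for pairs and interaction. Depth limits the rarer types most: immune cells had 92052 UMIs in PBS nonstim 1.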
